A study of Mus musculus with 45 samples.

Results

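General myeloid, complement and phagocytic genes were followed in the nucleus accumbens of mice after chronic intermittent ethanol. The set holds 31 genes, out of 18193 that the array names by a single gene symbol, and they are read by 52 of its 45037 probesets. Each gene was chosen by its symbol, as a measure of how much microglial RNA the tissue gave and in which state, and its value is that of its probeset with the highest mean.

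RNA from 45 adult male C57BL/6J mice was measured, with 1 array per mouse. All of them spent 4 days in an inhalation chamber, for 16 h of each day, in each of 4 cycles that were set apart by 7 days without exposure. The chamber of CIE mice held ethanol vapor (10 to 13 mg/l of air), and a cycle began with injected ethanol (1.6 g/kg) and pyrazole (1 mmol/kg), which blocks alcohol dehydrogenase, whereas Ctrl mice got pyrazole at the same dose with saline, in chambers that delivered air alone. Tissue was taken at 0 h, 8 h, 72 h and 7 d after the last session, with 6, 5, 5 and 6 CIE mice and 6, 5, 6 and 6 Ctrl mice. Pyrazole was given to both groups, and no group went without it. An effect of ethanol alone and one of ethanol together with pyrazole cannot be told apart here.

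Microglia are the resident macrophages of the brain. They depend on signalling through the receptor Csf1r, sense lipids and debris through Trem2 and its adaptor Tyrobp, take up antibody-coated material through Fc receptors, and digest what they engulf in lysosomes. They are also the main source of C1q, the complex that starts the classical complement cascade. That cascade tags synapses and debris for uptake through complement receptor 3, of which Itgam is a chain. Activation is known to change the levels of many of these genes, while most are also made by other macrophages and some, such as Ctsd, Cd9 and Tgfbr1, by many brain cells. In whole tissue, fewer microglia and less RNA of a gene in each microglia cannot be told apart.

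Values are log2 expression, so that a difference of 1 is a doubling, and a gene was called where its p value, adjusted over all probesets, was 0.01 or less. Array medians lay between 6.94 and 6.96. The probesets of 5 genes had means under those medians, P2ry6 at 6.77, Spi1 at 6.59, Cd33 at 6.44, Itgam at 6.29 and Hpgds at 6.17, and their changes are read from a dim signal. Across mice of one group the 31 genes varied more than most, with a median residual SD of 0.187 log2 units against 0.127 over all genes. Arrays of 1 mouse each stood apart on many of them at once. The mean deviation of the 31 genes was 0.34 on Ctrl 0 h replicate 20, against -0.16 to -0.02 on the other Ctrl 0 h arrays. It was 0.32 on CIE 72 h replicate 63 and 0.26 on Ctrl 72 h replicate 52, both the highest of their group. The main results of their groups are also given without these 3 arrays. Values are also given within hybridization sets, groups of arrays inferred from exactly equal values to have been processed together, each with at most 1 array of a group.

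Promoter sequence is shown for the members on which the results below turn, because the factor PU.1, encoded by the member Spi1, drives much of the myeloid program by binding an ETS-type motif. RefSeq promoters of GRCm38.p6, from 250 bases before to 50 bases after the start site, were found for 24 of the 31 genes. A common PU.1 core, GAGGAAGT, searched on both strands, occurred in 6 of the 24, namely C1qc, Cd53, Ctss, Hpgds, Inpp5d and Slco2b1, and in 3.69% of all 27025 genes with a promoter. The composite ETS-IRF motif, whose ETS part holds GGAA and can overlap the PU.1 core, occurred in Cd68 and Lpcat2 and in 3.16% of all genes. The windows of Itgam at chr7:128062390-128062689 on the plus strand, Fcgr3 at chr1:171059354-171059653 on the minus strand and Rnase4 at chr14:51090827-51091126 on the plus strand hold no match to the PU.1 core, and for Fcgr3 and Rnase4 each the window printed is 1 of 2 in the table, neither with a match. Cd53 at chr3:106790100-106790399 on the minus strand and C1qc at chr4:136892865-136893164 on the minus strand hold 1 each. C1qb, at chr4:136886151-136886450 on the minus strand, lies beside C1qc and holds none. Sequences are written 5′ to 3′ along the gene, with a match in capitals, which here reads as the reverse complement. Only exact matches were counted, and the windows of Itgam and Fcgr3 each hold a run that differs from the core in its last base alone. A match is a run of letters and not evidence of binding.
Itgam: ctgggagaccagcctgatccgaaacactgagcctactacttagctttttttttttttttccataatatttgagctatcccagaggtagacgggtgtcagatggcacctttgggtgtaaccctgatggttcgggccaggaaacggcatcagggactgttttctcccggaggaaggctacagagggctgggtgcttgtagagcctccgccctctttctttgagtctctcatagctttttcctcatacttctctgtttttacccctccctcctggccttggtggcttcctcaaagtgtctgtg
Fcgr3: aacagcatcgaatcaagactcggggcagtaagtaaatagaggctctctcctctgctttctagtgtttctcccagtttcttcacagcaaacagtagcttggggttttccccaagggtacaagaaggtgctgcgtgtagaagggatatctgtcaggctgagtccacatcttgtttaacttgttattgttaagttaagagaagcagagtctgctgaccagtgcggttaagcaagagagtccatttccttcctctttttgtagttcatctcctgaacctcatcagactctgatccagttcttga
Rnase4: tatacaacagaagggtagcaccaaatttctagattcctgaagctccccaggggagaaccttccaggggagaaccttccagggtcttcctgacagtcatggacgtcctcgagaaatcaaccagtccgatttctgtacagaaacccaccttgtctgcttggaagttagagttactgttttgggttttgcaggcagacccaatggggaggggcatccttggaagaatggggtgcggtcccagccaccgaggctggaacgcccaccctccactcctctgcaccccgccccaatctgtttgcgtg
Cd53: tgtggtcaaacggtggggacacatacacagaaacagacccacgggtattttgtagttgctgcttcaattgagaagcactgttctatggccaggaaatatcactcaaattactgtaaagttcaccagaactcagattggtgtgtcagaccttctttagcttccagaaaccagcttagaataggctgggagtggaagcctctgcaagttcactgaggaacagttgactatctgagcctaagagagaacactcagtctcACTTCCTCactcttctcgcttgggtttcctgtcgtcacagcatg
C1qc: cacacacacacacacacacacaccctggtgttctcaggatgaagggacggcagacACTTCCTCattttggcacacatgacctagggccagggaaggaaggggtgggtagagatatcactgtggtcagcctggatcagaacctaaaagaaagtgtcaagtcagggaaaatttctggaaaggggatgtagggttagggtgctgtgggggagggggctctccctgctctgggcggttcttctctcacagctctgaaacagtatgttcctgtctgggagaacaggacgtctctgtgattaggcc
C1qb: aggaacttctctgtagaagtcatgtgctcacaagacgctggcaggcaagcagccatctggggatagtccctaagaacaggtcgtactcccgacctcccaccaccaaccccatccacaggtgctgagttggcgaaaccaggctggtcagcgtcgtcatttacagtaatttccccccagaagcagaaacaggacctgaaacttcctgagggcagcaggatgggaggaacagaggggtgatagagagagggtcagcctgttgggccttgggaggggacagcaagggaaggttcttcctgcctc
Counted from the start site, the match began at 6 in Cd53 and at -195 in C1qc. C1qb, C1qc and C1qa are neighbours on chromosome 4, at chr4:136880126-136886200, chr4:136889801-136892936 and chr4:136895916-136898844.

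At 0 h, right after the last session, the 31 genes moved in different directions between CIE and Ctrl. Itgam was lower and Fcgr3 higher in CIE mice, and 22 of 31 genes lay below 0, against 43.1% of all genes. No member was called with limma, where 1.93% of all genes were. At an unadjusted p under 0.05 there were 4, against 18.4% of all genes. Of these, Itgam, Cd53 and Hpgds were lower in CIE, against 6.86% of all genes, and Fcgr3 was higher, against 11.6%. The median member difference was -0.13, against 0.02 over all genes.

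**Figure D1:**
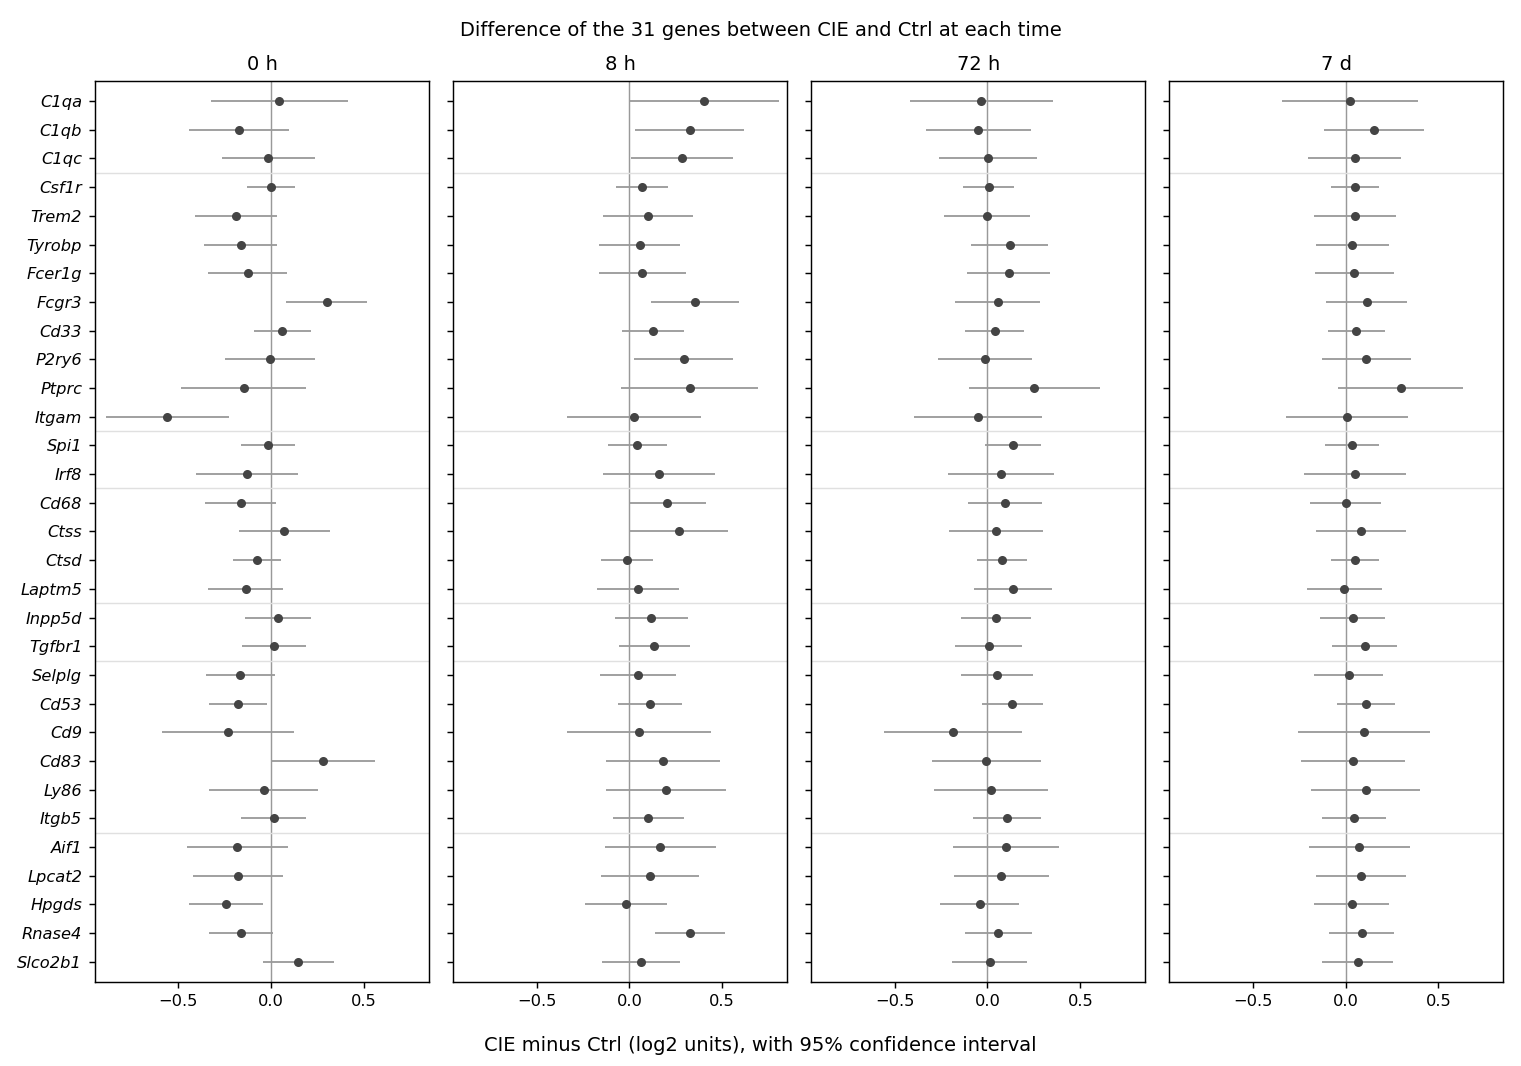
Difference between CIE and Ctrl in log2 units (x axis) for each of the 31 genes (rows, grouped by role) at 0 h, 8 h, 72 h and 7 d, with bars for the 95% confidence interval. At 8 h the points of 29 genes lie right of 0, and at 0 h those of Itgam (-0.56) and Fcgr3 (0.30) lie on opposite sides.

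Itgam, the alpha chain of complement receptor 3 and the antigen known as CD11b, had a lowest, median and highest level of 5.51, 5.86 and 6.41 in CIE 0 h mice, against 6.06, 6.47 and 6.80 in Ctrl 0 h mice. The groups overlapped, with 4 CIE mice below every Ctrl mouse and the other 2 within the Ctrl range. The difference was -0.56 log2 units (SE 0.163, 95% confidence interval -0.89 to -0.23), a level 0.679-fold that of Ctrl. Its adjusted p was 0.0406 in the limma fit, above the threshold of 0.01 and under 0.05, a level that 4.81% of all genes reached. Within the 5 hybridization sets that held a mouse of both groups Itgam was lower in CIE in 5 of 5, by -0.86 to -0.22. With 1 mouse left out at a time the adjusted p ran between 0.0129 and 0.133, and 3 of 12 fits stayed at 0.05 or less. Without the 3 arrays that stand apart the difference was -0.49 with an adjusted p of 0.099. The probeset of Itgam is dim, and no other single-symbol probeset reads the gene.

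Fcgr3, a low-affinity receptor for IgG that pairs with the signalling chain Fcer1g, went the other way. Its lowest, median and highest levels were 9.19, 9.52 and 9.70 in CIE 0 h mice, against 8.87, 9.11 and 9.77 in Ctrl 0 h mice. The Ctrl maximum is replicate 20, and the next highest Ctrl mouse was at 9.17, below all CIE mice. The difference was 0.30 (SE 0.108, 95% confidence interval 0.08 to 0.52), a 1.23-fold level, with a limma adjusted p of 0.12. Without Ctrl 0 h replicate 20 it was 0.42 with an adjusted p of 0.00815, which is under the threshold, and without the 3 arrays that stand apart the same difference had an adjusted p of 0.00296. With the hybridization sets as a block the adjusted p was 0.0197. Fcgr3 was higher in CIE in 5 of 5 sets, by 0.12 to 0.73. Replicate 20 belongs to no set and has no weight in either value, so that they are not separate from the fit without it.

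Fcer1g itself, the chain that Fcgr3 signals through, differed by -0.13 at 0 h, and the other Fc gamma receptors did not pass either. Fcgr2b, the inhibitory receptor, differed by -0.03, Fcgr1 by -0.04 and Fcgr4 by 0.05, so that none of these 3 passed at 0 h. All of these values include Ctrl 0 h replicate 20. On it the mean deviation of these 3 receptors was 0.67, against -0.18 to 0.09 on the other Ctrl 0 h arrays. CIE 0 h mice lay between -0.18 and 0.37. Fcer1g was at 9.71 on replicate 20, against 9.08 to 9.32 on the other Ctrl 0 h arrays.

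Among the other genes at 0 h, Cd53, a tetraspanin of white blood cells and microglia, was at 8.36, 8.54 and 8.62 in CIE mice (lowest, median, highest), against 8.59, 8.68 and 8.84 in Ctrl mice. Its ranges overlapped little, with 4 of 6 CIE mice below the lowest Ctrl mouse, and the difference of -0.18 had a limma adjusted p of 0.211. It was negative in 5 of 5 hybridization sets, and without the 3 arrays that stand apart it was -0.16 with an adjusted p of 0.275. Hpgds, a synthase of prostaglandin D2, was at 5.72, 5.95 and 6.19 in CIE mice, against 5.91, 6.18 and 6.48 in Ctrl mice. Its groups overlapped over most of their range, and the difference of -0.24 had an adjusted p of 0.184, against -0.25 and 0.193 without those arrays. Cd83, a surface protein of activated myeloid cells, differed by 0.28 with an unadjusted p of 0.0521 and an adjusted p of 0.308.

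The direction of the whole set at 0 h rested on 1 mouse. Without Ctrl 0 h replicate 20 the median member difference was -0.0096 and the genes split into 16 below 0 and 15 above. The members with an unadjusted p under 0.05 were then Itgam, Fcgr3, Hpgds and Slco2b1, an anion transporter that was 0.20 higher in CIE, and no longer Cd53. Without the 3 arrays together there were 6, with Cd53 and Ctss besides. Within hybridization sets, which do not hold replicate 20, the median of the members was below 0 in 2 of 5 and above in 3 of 5. By role, the 3 C1q genes had a median difference of -0.02 at 0 h, the 9 receptors and adaptors -0.13, the 2 transcription factors -0.07, the 4 lysosomal genes -0.11, the 6 surface genes -0.10 and 5 genes of other roles -0.18, each over all mice. The 2 signalling genes, Inpp5d and Tgfbr1, went the other way, with a median of 0.03.

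Other microglial genes in the same mice gave a different picture at 0 h. Of 10 measured genes known to mark homeostatic microglia, 3 were called lower in CIE mice, against 0.654% of all genes. P2ry12, a purine receptor of resting processes, was lower by 0.48, Fcrls, a receptor-like gene of resident microglia, by 1.21, and Olfml3 by 0.68. The limma adjusted p values were 0.00103, 1.46e-09 and 0.000336, and without the 3 arrays that stand apart 0.00128, 1.3e-09 and 0.00113. The mean deviation of the 10 genes lay between -0.64 and -0.19 in CIE 0 h mice, against -0.05 to 0.16 in Ctrl 0 h mice, with no overlap. For the 31 general myeloid genes the same mean lay between -0.23 and 0.04 in CIE 0 h mice, against -0.16 to 0.34 in Ctrl 0 h mice, with overlap over most of the range. Whether the 2 lists differ in their change was not tested.

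**Figure D2:**
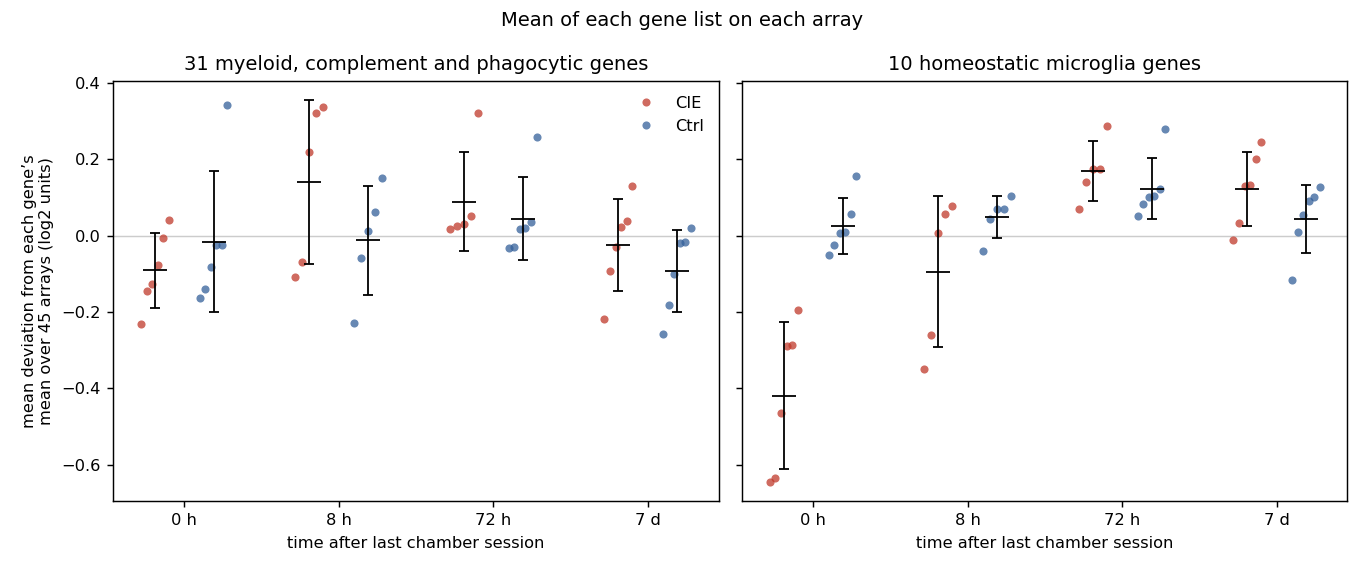
Mean deviation of a list from each gene's own mean over 45 arrays (y axis, log2 units) on each array, by time (x axis), for the 31 general myeloid genes and for 10 homeostatic microglia genes, with CIE left of Ctrl at each time and bars for the mean and SD of the group. At 0 h the homeostatic genes separate the groups (CIE -0.64 to -0.19, Ctrl -0.05 to 0.16) and the 31 genes do not (CIE -0.23 to 0.04, Ctrl -0.16 to 0.34).

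Markers of other cells stood beside these values as follows. None of the 10 border macrophage, 8 monocyte and neutrophil or 8 lymphocyte genes measured passed at any time. These lists are dim, with levels under the array medians. Over the arrays their mean levels were 5.83 to 6.29, 4.93 to 5.33 and 5.73 to 6.17, in that order. Of 8 astrocyte genes Gjb6, a gap junction gene, rose by 0.56 at 0 h (adjusted p 0.0036). Vtn, a pericyte gene, fell by 0.46 at 0 h (adjusted p 0.00011). The mean of the 9 endothelial and pericyte genes lay between -0.38 and -0.07 in CIE 0 h mice, against -0.10 to 0.03 in Ctrl 0 h mice, with 5 of 6 CIE mice below every Ctrl mouse. The other astrocyte and vascular markers, and all red blood cell, oligodendrocyte, neuron and medium spiny neuron markers measured, did not pass in a CIE versus Ctrl comparison. Their part in the member values was not tested.

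At 8 h, during withdrawal, nearly all of the set lay above its control level. The differences of 29 of 31 genes were above 0, against 51.7% of all genes, with Hpgds (-0.02) and Ctsd (-0.01) as the exceptions. The largest were those of the C1q genes, Fcgr3, Rnase4, Ptprc and P2ry6, each of 0.28 to 0.40 log2 units. No member was called with limma, where 0.0824% of all genes were. At an unadjusted p under 0.05 there were 6, all higher in CIE, against 8.04% of all genes in either direction and 4.46% higher. The median member difference was 0.12, against 0.0035 over all genes.

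The C1q genes encode the 3 chains of the recognition molecule of classical complement. C1qa was at 10.63, 10.81, 11.12, 11.30 and 11.48 in CIE 8 h mice, against 10.37, 10.62, 10.64, 10.75 and 10.94 in Ctrl 8 h mice. C1qb was at 10.72, 10.93, 11.33, 11.44 and 11.53 in CIE 8 h mice, against 10.63, 10.78, 10.87, 11.00 and 11.04 in Ctrl 8 h mice. In both genes the same 3 CIE mice, replicates 1, 23 and 25, lay above all Ctrl mice, while replicates 15 and 51 lay within the Ctrl range.

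C1qc repeated this order, with 9.36, 9.39, 9.83, 9.98 and 10.00 in CIE 8 h mice, against 9.21, 9.36, 9.43, 9.50 and 9.66 in Ctrl 8 h mice. The differences were 0.40 for C1qa (95% confidence interval -0.0019 to 0.81), 0.33 for C1qb (0.03 to 0.62) and 0.28 for C1qc (0.0067 to 0.56). Their limma adjusted p values were 0.675, 0.592 and 0.658. The 2 dimmer probesets of C1qb gave 0.21 and 0.23. C1qa was higher in CIE in 5 of 5 hybridization sets, by 0.01 to 0.75, C1qb in 4 of 5 (-0.28 to 0.70) and C1qc in 3 of 5 (-0.11 to 0.62).

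Fcgr3 was the 1 member of 31 whose groups did not overlap at 8 h. Its levels were 9.44, 9.45, 9.56, 9.77 and 9.78 in CIE 8 h mice, against 8.98, 9.23, 9.32, 9.35 and 9.35 in Ctrl 8 h mice. All CIE mice lay above all Ctrl mice, a pattern that 1.04% of all genes shared. The difference was 0.35 (SE 0.118, 95% confidence interval 0.11 to 0.59), a 1.28-fold level, and its limma adjusted p was 0.300. Fcgr3 was higher in CIE in 5 of 5 sets, by 0.09 to 0.58.

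Rnase4, a secreted ribonuclease, had the smallest p of the set at 8 h. It was at 9.48, 9.61, 9.89, 9.90 and 9.98 in CIE 8 h mice, against 9.25, 9.42, 9.44, 9.55 and 9.57 in Ctrl 8 h mice. The groups overlapped in 1 CIE mouse, replicate 15. The difference was 0.33 (SE 0.0939, 1.25-fold), with an unadjusted p of 0.00121 and an adjusted p of 0.153. Rnase4 was higher in CIE in 5 of 5 hybridization sets, by 0.04 to 0.65.

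Ctss, a lysosomal protease that also processes antigen, and P2ry6, a receptor for UDP that triggers microglial uptake, followed. Ctss was at 11.97, 12.06, 12.51, 12.52 and 12.62 in CIE 8 h mice, against 11.68, 12.06, 12.09, 12.24 and 12.28 in Ctrl 8 h mice. P2ry6 was at 6.96, 7.00, 7.15, 7.21 and 7.25 in CIE 8 h mice, against 6.44, 6.68, 6.88, 7.01 and 7.11 in Ctrl 8 h mice. Again replicates 1, 23 and 25 lay above all Ctrl mice in both genes. The differences of 0.27 and 0.29 had limma adjusted p values of 0.673 and 0.592. Within hybridization sets Ctss was higher in CIE in 3 of 5 and P2ry6 in 4 of 5.

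Ptprc, the phosphatase CD45, differed by 0.33 and was higher in CIE in 3 of 5 sets. The other lysosomal and surface members named here were less far from Ctrl. Cd68, a lysosomal glycoprotein used as a mark of phagocytic microglia, differed by 0.20 with an unadjusted p of 0.0543. Ly86, a partner of a Toll-like receptor homolog, differed by 0.20, and Aif1, the protein known as IBA1, by 0.17. Csf1r differed by 0.07 (95% confidence interval -0.07 to 0.21) and Tyrobp by 0.06. Itgam, which was low at 0 h, differed by 0.02 at 8 h.

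**Figure D3:**
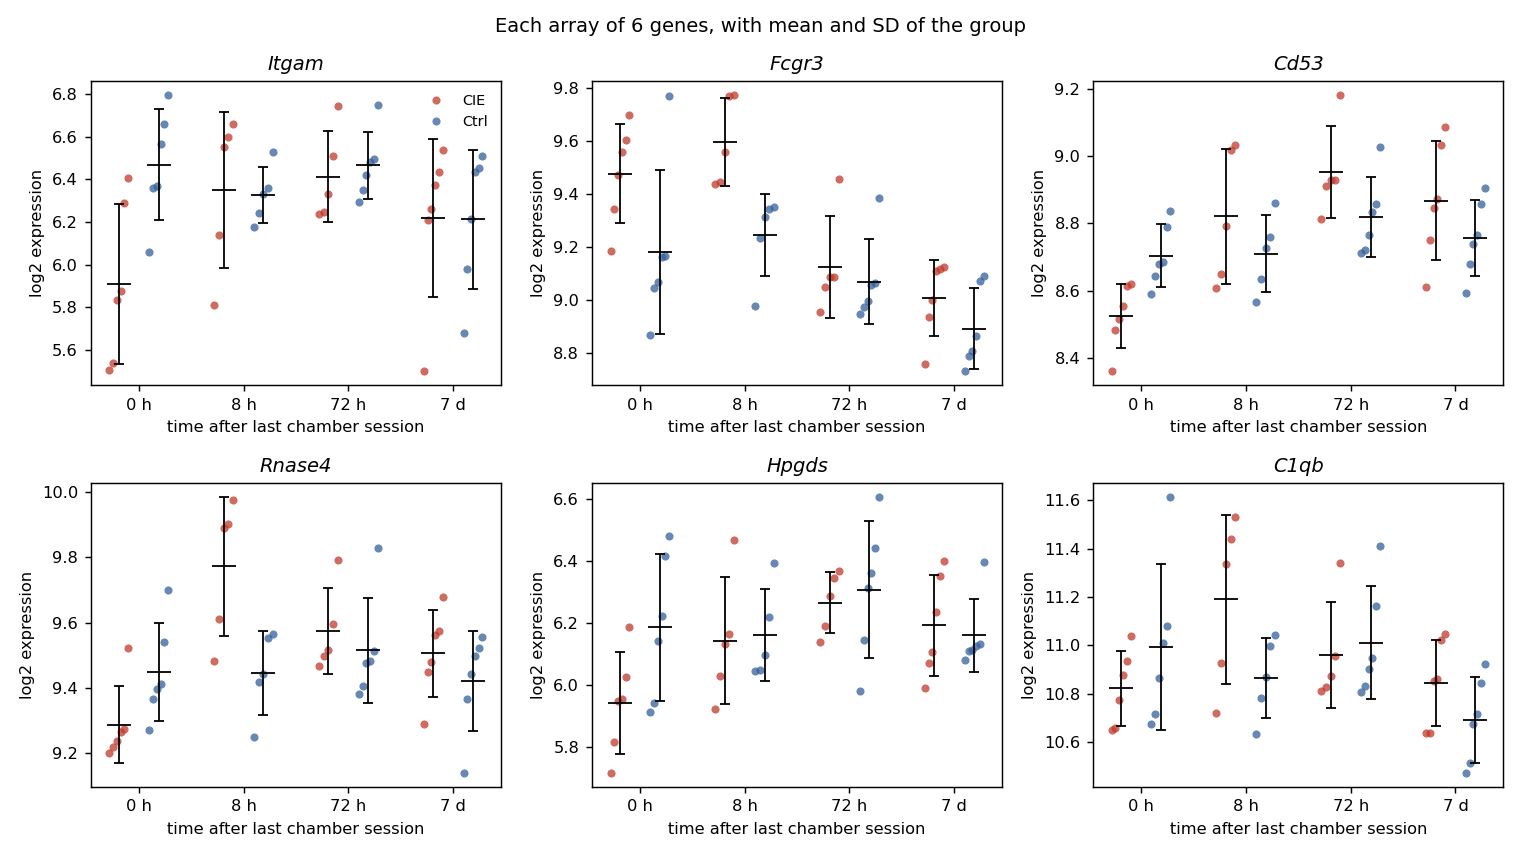
Log2 expression (y axis) of Itgam, Fcgr3, Cd53, Rnase4, Hpgds and C1qb on each array by time after the last session (x axis), CIE left of Ctrl, with the mean and SD of each group. The mean of Fcgr3 in CIE mice is higher at 0 h and 8 h than in CIE mice at 72 h and 7 d. In C1qb the CIE 8 h mice form a high set of 3 (11.33 to 11.53) and a low set of 2 (10.72 and 10.93).

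The spread among CIE 8 h mice ran through the whole set. The mean deviation of the 31 genes was 0.34, 0.32 and 0.22 on CIE 8 h replicates 1, 25 and 23, and -0.07 and -0.11 on replicates 15 and 51. Ctrl 8 h mice lay between -0.23 and 0.15, so that 3 CIE mice stood above them and 2 lay among them. Within hybridization sets the median of the members was above 0 in 3 of 5 and below in 2 of 5, between -0.15 and 0.44. Without CIE 8 h replicate 1 the median member difference was 0.06 and 2 genes kept an unadjusted p under 0.05. Without replicate 51 it was 0.17 and 9 genes did. Single mice thus moved the count of 6 in both directions, while no member was called in any of these fits.

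Related genes at 8 h were also counted. Of 12 measured complement genes downstream of C1q or regulating it, none passed, with a median difference of 0.15, and C3ar1, the receptor for the fragment C3a, differed by 0.31 (adjusted p 0.0847). Itgb2, the beta chain that pairs with Itgam, differed by 0.29 (adjusted p 0.69). None of the 10 measured genes of Csf1r ligands and Trem2-Tyrobp signalling passed, with a median of 0.08. Among Fc gamma receptors Fcgr4 differed by 0.59 with an adjusted p of 0.304. The mean deviation of the 3 Fc gamma receptors besides Fcgr3 lay between -0.01 and 0.64 in CIE 8 h mice, against -0.33 to 0.42 in Ctrl 8 h mice.

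Of 13 measured genes known to rise in activated microglia none passed at 8 h, with a median of 0.20. Lyz2, lysozyme, differed by 0.52 with an adjusted p of 0.141. The mean of this list lay between -0.07 and 0.51 in CIE 8 h mice, against -0.19 to 0.18 in Ctrl 8 h mice. The 10 inflammatory cytokine genes had a median of 0.10 and none passed. Their mean level over the arrays was 5.37 to 5.73, under the array medians. Fcrls, of the homeostatic genes, fell by 0.83 at 8 h in the same mice (adjusted p 0.000107).

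Markers of other cells at 8 h were read in the same way. The astrocyte mean lay between 0.02 and 0.30 in CIE 8 h mice, against -0.10 to 0.19 in Ctrl 8 h mice, while the border macrophage mean lay between -0.04 and 0.17 in CIE 8 h mice, against -0.06 to 0.23 in Ctrl 8 h mice. The mean of the 3 measured red blood cell genes separated the groups, at -0.24 to -0.08 in CIE 8 h mice, against 0.02 to 0.15 in Ctrl 8 h mice. The signal of these 3 genes was dim, with a mean level of 4.86 to 5.42 over all arrays, under the array medians. Of these 3, Alas2, an enzyme of heme synthesis, differed by -0.69 (adjusted p 0.0806), and Hba-a1 and Slc4a1 by -0.01 each. The oligodendrocyte mean was 0.21, 0.21 and 0.33 on CIE 8 h replicates 1, 23 and 25. It was -0.15 and -0.18 on replicates 15 and 51, the same split as in the general myeloid genes. In Ctrl 8 h mice it lay between -0.88 and 0.35, a range that held all CIE 8 h mice. Its lowest Ctrl 8 h mouse, replicate 42, was also the lowest for the general myeloid genes (-0.23). Its highest, replicate 79, was at 0.01 for those genes. The part of other cells in the 8 h values was not tested.

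Whether the difference from Ctrl at 8 h was another than at 0 h was tested as an interaction. It lay above 0 for 29 of 31 genes, against 45% of all genes, but no member was called, as was no gene at all (0%). At an unadjusted p under 0.05 there were 5 members, Itgam, C1qb, Cd68, Cd53 and Rnase4, all with higher differences at 8 h, against 6.6% of all genes. The lowest adjusted p, for Rnase4, was 0.215, with an interaction of 0.49 log2 units. The 0 h comparison enters every one of these values, so that Ctrl 0 h replicate 20 does too, and without the 3 arrays that stand apart 27 genes lay above 0.

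At 72 h and 7 d the differences were small. No member was called at either time, as was no gene of the array (0%), and at an unadjusted p under 0.05 no member was found at 72 h, against 4.56% of all genes, nor at 7 d, against 1.97%. The median member difference was 0.05 at both times, against 0.03 over all genes at 72 h and -0.0026 at 7 d. The 95% confidence intervals, not adjusted for the number of probesets, had a median reach of 0.22 log2 units to each side at 72 h and 0.21 at 7 d. Over all members they spanned -0.56 to 0.61 at 72 h and -0.35 to 0.63 at 7 d. The threshold on the adjusted p is stricter, so that differences of the median reach and larger ones could go uncalled. An F test over the 4 comparisons called no member, against 1.03% of all genes, and 4 members had an unadjusted p under 0.05, against 13%.

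At 72 h, 23 of 31 genes lay above 0, against 67.6% of all genes. Spi1, at 6.55, 6.61, 6.69, 6.70 and 6.76 in CIE 72 h mice, against a lowest, median and highest of 6.39, 6.54 and 6.65 in Ctrl 72 h mice, had the lowest adjusted p, at 0.714, with overlapping groups. The median rested on replicates 63 and 52, the high mouse of each group. It was -0.0021 without CIE 72 h replicate 63, 0.09 without Ctrl 72 h replicate 52 and 0.04 without the 3 arrays that stand apart. The mean of monocyte and neutrophil markers lay between 0.05 and 0.28 in CIE 72 h mice, against -0.05 to 0.05 in Ctrl 72 h mice, with overlap in 1 mouse of each group. These markers are dim, as given above, and their part in the 72 h values was not tested.

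At 7 d, 29 of 31 genes lay above 0, against 48.2% of all genes, with Laptm5 and Cd68 just below 0. Of these 29, only Ptprc (0.30) and C1qb (0.15) differed by more than 0.12. Ptprc was at 7.30, 7.80 and 8.14 in CIE 7 d mice (lowest, median, highest), against 7.26, 7.38 and 8.06 in Ctrl 7 d mice, with overlap over almost the whole range. Within hybridization sets the member median was above 0 in 3 of 6 and below in 3 of 6. At 7 d single mice were far from the rest in single genes, as in C1qa at 9.49 in CIE 7 d replicate 13 and 9.71 in Ctrl 7 d replicate 62, which were also the lowest mice of their groups for Itgam, at 5.50 and 5.68.

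Levels were next followed over time within each treatment, a comparison of different mice. Within CIE, 3 of 31 genes were called by an F test over the 4 times, Fcgr3, Cd53 and Rnase4, with limma adjusted p values of 0.000753, 0.00159 and 0.00306, against 3.07% of all genes. At an unadjusted p under 0.05 there were 18 of 31, against 19.4% of all genes. Within Ctrl no member was called, against 0.313% of all genes, and Fcgr3 alone had an unadjusted p under 0.05, at 0.0160, against 7.61% of all genes.

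Cd53 was low at 0 h and higher later in CIE mice. CIE 0 h mice had a lowest, median and highest level of 8.36, 8.54 and 8.62, CIE 8 h mice of 8.61, 8.79 and 9.03, CIE 72 h mice of 8.81, 8.93 and 9.18, and CIE 7 d mice of 8.61, 8.86 and 9.09. All CIE 72 h mice lay above all CIE 0 h mice. Against CIE 0 h it was 0.43 higher at 72 h (SE 0.0808, adjusted p 0.000825), where 2.15% of all genes were called, and 0.34 higher at 7 d (adjusted p 0.00565), where 2.07% were. Both were called in Cd53. It was 0.30 higher at 8 h (adjusted p 0.0437), which was not called. The 72 h difference was called in 45 of 45 fits that left out 1 array, and without the 3 arrays that stand apart (0.37, adjusted p 0.00617). The 7 d difference was called in 37 of 45 fits, with a highest adjusted p of 0.0259 without CIE 7 d replicate 13. With the hybridization sets as a block the 7 d difference was no longer called (adjusted p 0.0146). Cd53 has 2 probesets, and the mean of both also left the 7 d difference uncalled. With that mean the F test over the 4 times within CIE no longer called Cd53 either (adjusted p 0.0112).

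Rnase4 was higher in CIE 8 h than in CIE 0 h mice. CIE 0 h mice lay at 9.20, 9.25 and 9.52 (lowest, median, highest), and CIE 8 h mice at 9.48, 9.89 and 9.98, with only CIE 0 h replicate 17 reaching the CIE 8 h range. The difference of 0.49 (SE 0.0899) was called with an adjusted p of 0.00145, where 0.77% of all genes were, and the 72 h (0.29) and 7 d (0.22) differences from 0 h were not. It was called in 44 of 45 fits that left out 1 array, and not without CIE 8 h replicate 1 (adjusted p 0.0117).

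Fcgr3 had the reverse course. Its median was 9.52 in CIE 0 h mice, 9.56 in CIE 8 h mice, 9.08 in CIE 72 h mice and 9.05 in CIE 7 d mice, and all CIE 7 d mice lay below all CIE 0 h mice. The 7 d level was 0.47 lower than at 0 h (SE 0.108, adjusted p 0.00674), which was called, also in 38 of 45 fits that left out 1 array, with a highest adjusted p of 0.0286 without CIE 0 h replicate 26. The 72 h level was 0.35 lower (adjusted p 0.0723), and 0.43 lower with an adjusted p of 0.00385 without the 3 arrays that stand apart. Ctrl mice also had their lowest Fcgr3 at 7 d, 0.29 below Ctrl 0 h (adjusted p 0.593), or 0.17 below it without those arrays.

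Tyrobp and Trem2, adaptor and receptor of 1 signalling pair, were both 0.39 higher in CIE 72 h than in CIE 0 h mice, with limma adjusted p values of 0.0198 and 0.0393 that miss the threshold. Without the 3 arrays that stand apart the differences were 0.33 and 0.34 with adjusted p values of 0.079 and 0.105. Whether the course in CIE differed from that in Ctrl was tested by the interactions, and no member was called for 8 h, 72 h or 7 d against 0 h, where 0%, 0.0824% and 0.231% of all genes were. The lowest adjusted p values of a member were 0.215, 0.355 and 0.277. Fcgr3, Cd53 and Rnase4 thus changed among CIE mice, without a called difference from the course in Ctrl.

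**Figure D4:**
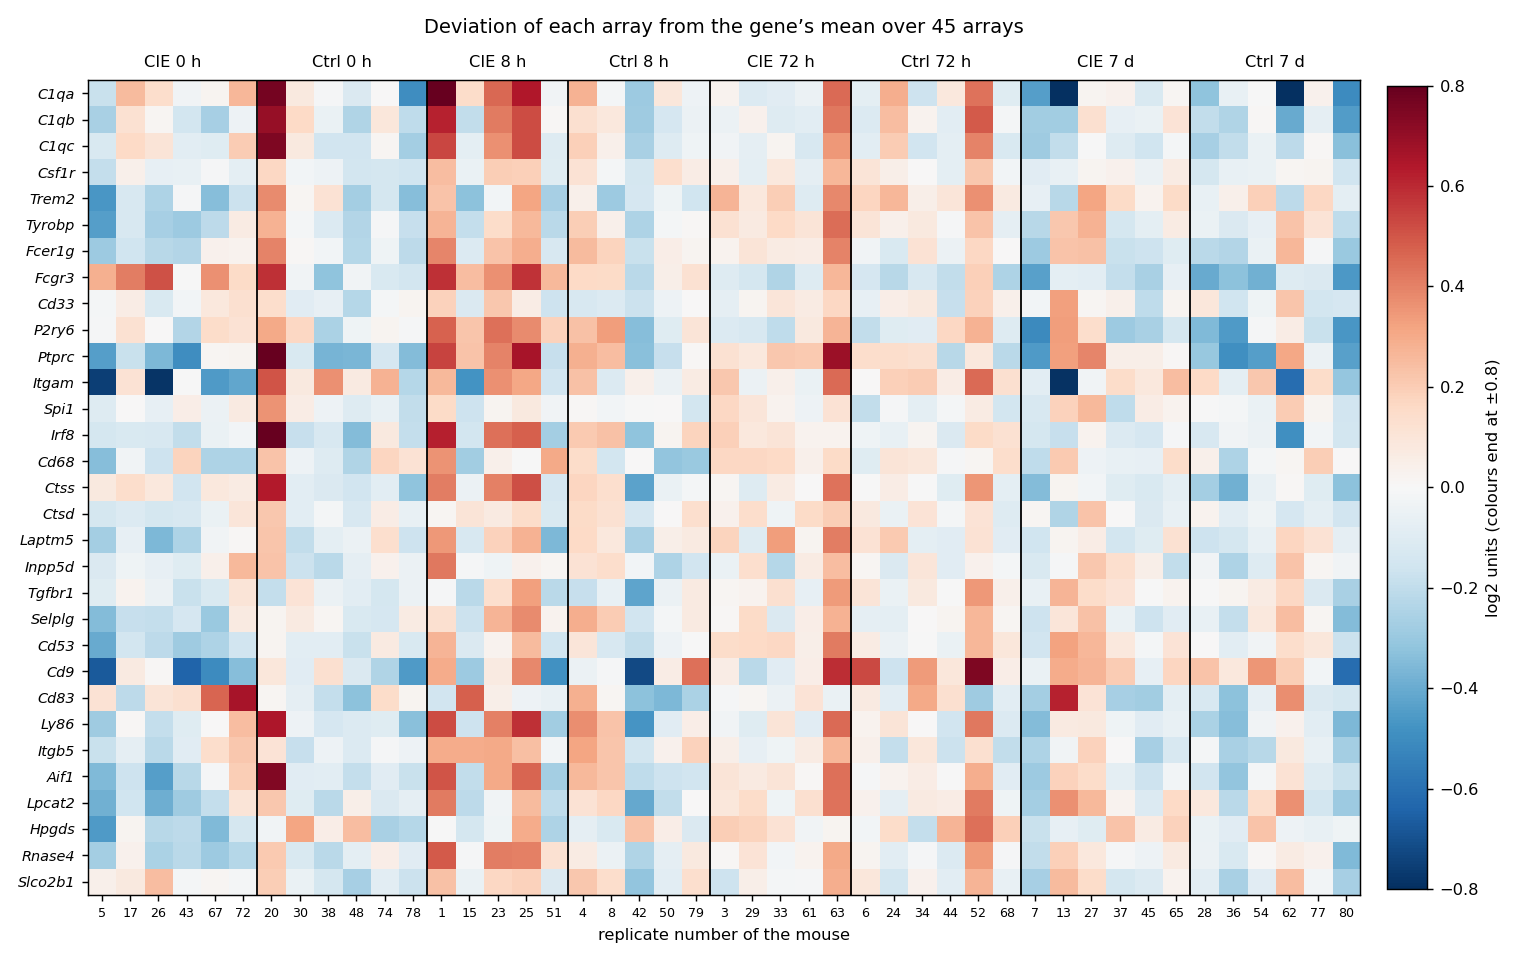
Deviation of each array from the gene's mean over 45 arrays (colour, log2 units, ending at ±0.8) for the 31 genes (rows, by role) and all arrays (columns, by group, with the replicate number of the mouse). Whole columns stand out, such as Ctrl 0 h replicate 20, CIE 8 h replicates 1 and 25, CIE 72 h replicate 63 and Ctrl 72 h replicate 52.

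The members varied together from mouse to mouse. With group means removed, the median Pearson r over the 465 pairs of genes was 0.54 across 45 arrays, with 21 pairs below 0. The r of a gene with the mean of the other 30 was highest for Ly86 (0.96), Tyrobp (0.93), Ctss (0.92), Aif1 (0.91), C1qc (0.90) and Fcer1g (0.89). It was lowest for Itgam (0.42), Cd68 (0.28), Hpgds (0.17) and Cd83 (0.13). The arrays share normalization and RNA of the same dissection, so these values describe common movement of signals and no more.

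**Figure D5:**
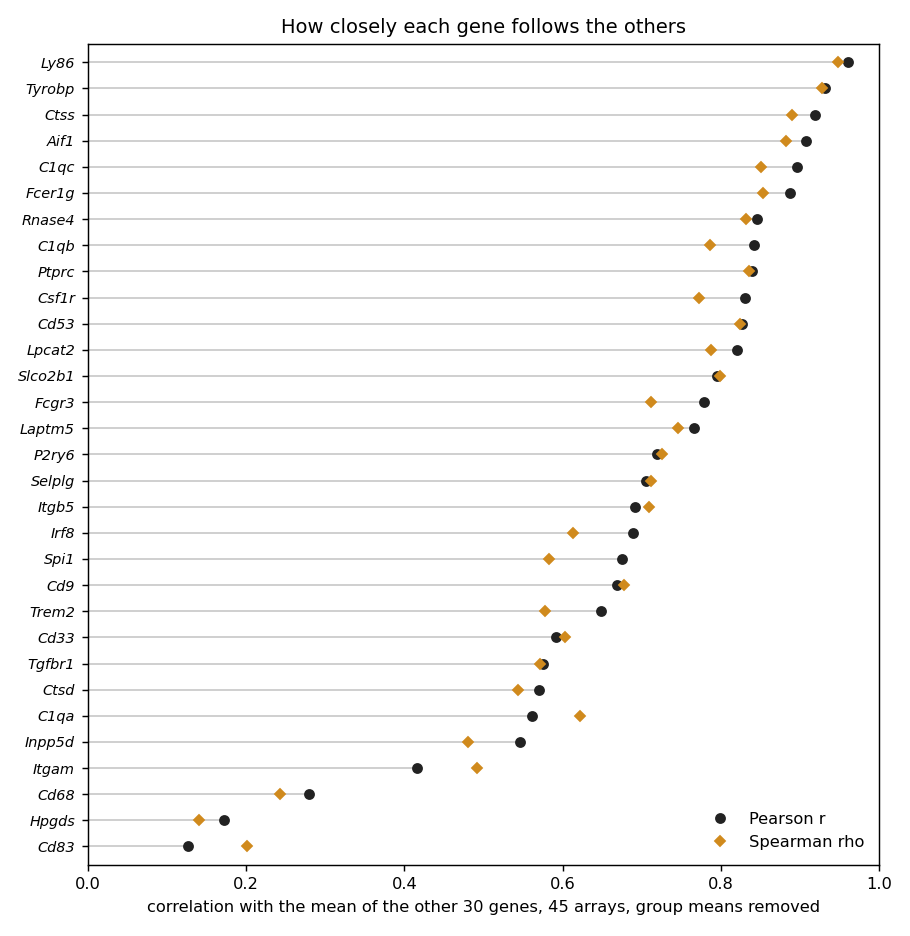
Pearson r and Spearman rho (x axis) of each of the 31 genes (rows) with the mean of the other 30 genes over 45 arrays, after group means were removed. Ly86 (r 0.96) and Tyrobp (0.93) follow the others most closely, and Cd83 (0.13) and Hpgds (0.17) least.

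The 3 C1q genes had a median pairwise r of 0.82, but C1qa followed the other members less closely (r 0.56) than C1qb (0.84) and C1qc (0.90) did, and it also varied most within groups, with the low 7 d mice given above. Itgam, whose difference at 0 h was the largest of the set, was among the genes that followed the others least. Removing the means of the hybridization sets as well left r at 0.95 for Ly86 and 0.37 for Itgam.

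The mean of the 31 genes was then set beside lists of other cells over the same 45 arrays, again with group means removed. The r was 0.86 with activated microglia genes, 0.81 with the other Fc gamma receptors and 0.71 with homeostatic microglia genes. It was 0.63 with astrocyte, 0.46 with oligodendrocyte, 0.46 with endothelial and pericyte and 0.44 with lymphocyte markers. It was 0.17 with monocyte and neutrophil, 0.08 with border macrophage, 0.0021 with red blood cell, -0.09 with medium spiny neuron and -0.38 with neuron markers. Without the 2 arrays farthest from the rest in the mean of the 31 genes the order of these lists changed. The r was then 0.84 with activated and 0.79 with homeostatic microglia genes. It was 0.58 with oligodendrocyte, 0.50 with astrocyte, 0.48 with endothelial and pericyte and 0.26 with lymphocyte markers. The lymphocyte, monocyte and neutrophil, border macrophage and red blood cell lists are dim, as given above.

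A few genes have several probesets that did not give the same value. For Laptm5, a lysosomal membrane protein, the brightest probeset differed by -0.14 at 0 h, and 2 dimmer ones by -0.25 (unadjusted p 0.0145) and -0.41 (unadjusted p 0.00511, adjusted p 0.0885), so that the size depended on the probeset. The dimmer probeset of Lpcat2, an enzyme of platelet-activating factor synthesis, differed by -0.27 at 0 h, against -0.18 for the brighter one. For Irf8, a transcription factor of myeloid cells, the dimmer probeset differed by 0.28 at 8 h and the brighter one by 0.16. None of these was called.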

How the data were processed

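RNA of the nucleus accumbens of 45 mice was hybridized to Affymetrix mouse arrays, 1 per mouse. The authors deposited log2 values per probeset, made with RMA for each hybridization batch, followed by quantile normalization over all arrays and ComBat. No source used here gives a version for RMA. Arrays have no counting depth, and precision depends on the number of arrays, the spread among mice and how dim a probeset is. Of 45037 probesets 34945 had a single symbol, 932 several and 9160 none.

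limma 3.58.1 in R 4.3.3 was fitted to all probesets and arrays with 8 group means. P values were adjusted by Benjamini-Hochberg within a contrast, with the threshold of 0.01 used in the methods of the study, and tested on simulated data. The labels give no batch. Arrays sharing at least 5 exactly equal values (tolerance 2e-08) were taken as a hybridization set, which gave 6 sets of 6 to 8 arrays with at most 1 array of a group each and left Ctrl 0 h replicate 20 in none. They may differ from the authors' batches. Replicates are separate mice. The labels describe 48 mice in all, of which 45 are analysed here.

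All members may be named. Values per array are given for members with an adjusted p of 0.05 or less, or else the smallest, until 5. Other members, and genes of the other lists that did not pass, were named after their values were seen. Members and lists were chosen with earlier results of these data known. Alternatives changed the normalization, dim-probeset filter, empirical Bayes settings, array weights, batch, probeset rule, threshold and arrays. One, leaving out 3 arrays together, was chosen after seeing the data, as was counting the comparisons over time under each alternative.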

Additional observations from a re-analysis of the deposited data

Results flagged for a closer look

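Of 248 groups of arrays, 31 genes in 8 groups, 30 held an array far from the others by Dixon's criterion. Chance gives about 1 in 20, and the genes vary together, so that these are not independent. Most came from 3 mice, each the highest of its group. CIE 72 h replicate 63 was far above the other CIE 72 h mice in 7 genes, Aif1 (9.15), C1qa (11.11), C1qb (11.34), Tyrobp (11.01), Fcer1g (9.70), Fcgr3 (9.46) and Ptprc (8.44). Ctrl 0 h replicate 20 was far above the other Ctrl 0 h mice in 7 genes, Aif1 (9.45), C1qc (10.21), Ctss (12.74), Ly86 (11.36), Fcgr3 (9.77), Irf8 (8.32) and Ptprc (8.55). Ctrl 72 h replicate 52 was far above the other Ctrl 72 h mice in 5 genes, Ctss (12.46), Selplg (9.77), Fcgr3 (9.38), Lpcat2 (9.21) and Rnase4 (9.83).

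The other 11 were single genes on single arrays. The highest of their groups were Inpp5d on CIE 8 h replicate 1 (8.18), Rnase4 on CIE 0 h replicate 17 (9.52), Slco2b1 on CIE 0 h replicate 26 (9.29) and Hpgds on Ctrl 7 d replicate 54 (6.40). The lowest of their groups were Itgam on CIE 7 d replicate 13 (5.50), Cd68 on CIE 72 h replicate 61 (8.80), Ctss on CIE 0 h replicate 43 (11.95), Itgb5 on CIE 8 h replicate 51 (9.72), Laptm5 on Ctrl 8 h replicate 42 (9.11), Spi1 on Ctrl 8 h replicate 79 (6.44) and Irf8 on Ctrl 7 d replicate 62 (6.93).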

How the results depend on the processing

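The count of 0 members called between CIE and Ctrl at 0 h became 1 at an adjusted p of 0.05 (Itgam), and 1 without Ctrl 0 h replicate 20 or without 3 arrays together (Fcgr3), as did the F test over the 4 comparisons without replicate 20 or without those 3 arrays (1 member, against 0). Within CIE the F test called 3 members, and 1 (Fcgr3) without CIE 0 h replicate 5. It also called 2 with the mean of all probesets of a gene (not Cd53), and 2 without CIE 0 h replicate 26 or CIE 8 h replicate 1 (not Rnase4). With array weights it called 4, with P2ry6 besides. Of CIE 8 h against CIE 0 h 1 member was called, 2 at an adjusted p of 0.05, and 0 to 1 with 1 array left out, the 0 without CIE 8 h replicate 1. Of CIE 72 h against CIE 0 h 1 was called, 3 at an adjusted p of 0.05, 3 with array weights, 2 without the 3 arrays together, and 1 to 2 with 1 array left out, the 2 without CIE 0 h replicate 72. Of CIE 7 d against CIE 0 h 2 were called, 1 (Fcgr3) with array weights, with the hybridization sets as a block or with the mean of all probesets of a gene, and 0 to 2 with 1 array left out. It was 0 without CIE 0 h replicates 5, 26 or 67 or CIE 7 d replicate 37, Cd53 alone without CIE 0 h replicate 17 or CIE 7 d replicates 7 or 45, and Fcgr3 alone without CIE 0 h replicate 43 or CIE 7 d replicates 13, 27 or 65. The other counts of called members, at the threshold, were within 1.5 times their value in the report in all alternatives run. With 1 array left out at a time, the median member difference ran between -0.145 and -0.00955 at 0 h, 0.0599 and 0.17 at 8 h, -0.00205 and 0.0937 at 72 h and 0.0297 and 0.108 at 7 d. Of 124 differences of a member from Ctrl, 55 changed sign in at least 1 alternative, the largest of them 0.30 in size, and 2 of 2635 fits of a single member called one, both for Fcgr3 at 0 h. With the hybridization sets as a block the 0 h median was -0.011, but Ctrl 0 h replicate 20, in no set, has no weight in it. Replicate numbers are those of single mice and none is shared between groups, so that only the inferred hybridization sets, and no replicate number, could pair mice.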
